A study of Homo sapiens with 18 samples.

Results

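The fibroblast growth factor (FGF) genes described here are 5 ligands (FGF1, FGF2, FGF5, FGF7 and FGF18) and 4 receptors (FGFR1, FGFR2, FGFR3 and FGFRL1), taken by symbol from a count table of 28278 genes. All 9 were found in the table, and 7 passed the filter on low counts and were tested. FGF7 and FGFR2 did not pass and are given as counts only. FGF18 passed on 8 of 18 libraries.

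FGFs are growth factors that bind receptor tyrosine kinases on the cell surface, with heparan sulfate chains as a required partner in the complex. The bound receptor signals through the adaptor FRS2 to the RAS and MAP kinase cascade, which also induces its own inhibitors of the Sprouty and dual-specificity phosphatase families. In the liver, FGFs are known as mitogens for stellate cells, the pericyte-like cells that lay down matrix in fibrosis. FGF1 and FGF2 lack a signal peptide and leave the cell by a route outside the endoplasmic reticulum, whereas FGF5, FGF7 and FGF18 are secreted in the usual way. FGFRL1 binds ligand but has no kinase domain.

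The data were bulk RNA-seq counts from LX-2, a single established human hepatic stellate cell line. Cells spent 1 h without serum and then received either 1 U/mL thrombin, the clotting protease, or serum-free medium as the control. RNA was taken after 4, 24 or 48 h, which gave 6 groups of 3 libraries. The labels carry the numbers 12, 13 and 14 in each group. What a number stands for is not stated. No label says that the 3 libraries of a group came from separate cultures, so the spread behind each p-value may be technical only.

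Library totals ran from 14431044 to 23270601 counts. Levels are CPM, the counts of a gene divided by the library's TMM-scaled total and expressed per 1e6 counts. Of the stellate markers, COL1A1 lay between 1743 and 2804 CPM and VIM between 3129 and 4079 CPM. PDGFRB lay between 48.1 and 95.5 CPM, TAGLN between 23.6 and 149.3, THY1 between 21.5 and 38.5 and COL1A2 between 12.4 and 25.1. Lower still were ACTA2 (7.59 to 19.1 CPM), HAND2 (4.42 to 9.90), RGS5 (3.53 to 6.54) and DES (1.42 to 6.60). LRAT, a marker of vitamin A storing stellate cells, had at most 6 counts in a library. Of the hepatocyte markers, TTR was at 0, ALB and APOA1 had at most 2 counts and HNF4A at most 7, and SERPINA1 lay between 3.37 and 6.59 CPM. Of the macrophage and leukocyte markers, C1QA was at 0, PTPRC lay between 1.07 and 2.99 CPM, CD14 between 3.79 and 9.72 and CD68 between 61.1 and 87.4. The endothelial markers PECAM1 and VWF reached 6.47 and 23.7 CPM. Among the cholangiocyte markers, SOX9 was at 126 to 270 CPM, KRT7 at 4.29 to 9.02, and EPCAM had at most 3 counts. The part of these marker genes in the results was not tested. In bulk RNA, fewer cells of a type and less RNA per cell cannot be told apart. The libraries labelled thrombin 4 h stood close to those labelled control 24 h. Between them 3 of 15353 genes were higher and 8 lower (0.0195% and 0.0521%) by edgeR's quasi-likelihood test, and 857 genes had an unadjusted p under 0.05. None of the 7 tested FGF genes was called between those groups. The thrombin 4 h libraries were nevertheless all below the control 24 h libraries for FGF1 and FGFR1. The log2 difference was -0.35 for FGF1 (95% interval -0.63 to -0.07, adjusted p = 0.722) and -0.08 for FGFR1 (-0.25 to 0.09). Ranges of the other tested FGF genes overlapped. In both 4 h groups the library numbered 12 was farther from the other 2 than these were from each other. In control 4 h, chi-square per degree of freedom over genes was 16.4 and 16.1 against 4.41. Number 12 also stood apart in thrombin 24 h (10.9 and 12.0 against 7.69) and thrombin 48 h (5.44 and 9.99 against 3.75). Number 14 stood apart instead in control 24 h (8.21 and 4.72 against 2.925) and control 48 h (17.7 and 12.9 against 3.86). Without all libraries numbered 12, the 4 h log2 fold changes were -1.18 for FGF1 (adjusted p = 9.56e-07), -0.51 for FGF2 (adjusted p = 0.00083) and 0.21 for FGFRL1 (adjusted p = 0.134). All directions below rest on the labels as given.

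FGF1 lies at chr5:142592178-142698070 on the minus strand, FGF2 at chr4:122826708-122898236 on the plus strand and FGF5 at chr4:80266599-80336680 on the plus strand (GRCh38, GENCODE 29). These 3 ligands carry the main differences, so the stretch before a RefSeq start of each (GRCh38.p14) is shown from 5′ to 3′ on the gene's strand, limited to bases that no annotated exon covers. FGF1 is shown before 1 of its 4 RefSeq starts, the one with motif matches. Capitals mark the letters GGAATG, the TEAD motif.

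FGF1, chr5:142644302-142644489, minus strand: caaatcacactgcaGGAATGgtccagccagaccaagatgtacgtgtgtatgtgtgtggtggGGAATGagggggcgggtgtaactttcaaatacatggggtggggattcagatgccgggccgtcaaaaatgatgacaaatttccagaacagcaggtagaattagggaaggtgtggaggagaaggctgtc

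FGF2, chr4:122826581-122826681, plus strand: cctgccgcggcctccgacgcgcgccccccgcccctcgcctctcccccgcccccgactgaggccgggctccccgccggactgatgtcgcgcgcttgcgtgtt

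FGF5, chr4:80266338-80266587, plus strand: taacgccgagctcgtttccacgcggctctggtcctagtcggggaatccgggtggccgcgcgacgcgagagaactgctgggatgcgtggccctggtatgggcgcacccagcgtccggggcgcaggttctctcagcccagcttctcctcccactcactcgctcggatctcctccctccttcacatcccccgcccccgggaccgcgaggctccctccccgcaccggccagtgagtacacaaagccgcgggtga

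The RefSeq windows of 300 bases (250 before and 50 after a start) covered 8 of the 9 genes with 16 windows. The same FGF1 window held the AP-1 letters TGANTCA with their first base at position -41 from the start, inside an exon of another transcript and so not shown. The TEAD letters began at positions -236 and -189. On both strands, TGANTCA was found in 7.71% and GGAATG in 14% of all 35116 windows. The windows of FGF2 and FGF5 held neither. GGAATG was also in 2 of the FGFR2 windows, at positions -84 and -218, so 3 of the 16 windows held it. The letters TGACGTCA (cyclic AMP response element), GCGTGGGCG (EGR) and the SRF CArG box, present in 1.85%, 0.795% and 1.29% of all windows, were in none of the 16. None of these motifs overlaps another in the FGF1 window. The counts do not show which start was used, and a match in these letters is a description only.

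Levels per kilobase of merged exons ranked the genes, as means over 18 libraries. FGFR1 was highest at 19.4 CPM per kb, followed by FGFRL1 at 13.1 and FGF2 at 11.6. FGF5 (6.12), FGF1 (3.58) and FGFR3 (3.09) came next. FGF18 (0.273), FGF7 (0.0281) and FGFR2 (0.00965) were at the bottom. Dividing by the longest basic transcript instead raised FGFR1 to 44.4 and left the order as it was. FGF1 and FGFR3 lay close together in this order, and in the control 24 h group FGF1 was at 2.23 ± 0.23 CPM per kb (SD, n = 3) and FGFR3 at 3.12 ± 0.47. In thrombin 24 h, FGF2 was at 19.0 ± 2.51 CPM per kb and FGFRL1 at 12.1 ± 1.12, the reverse of their order over all libraries.

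**Figure D1:**
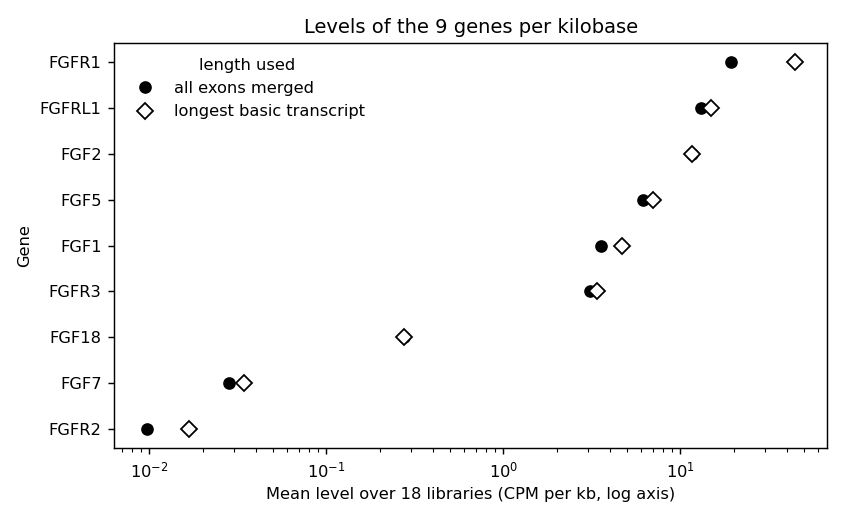
Mean level of the 9 genes over 18 libraries in CPM per kilobase on a log axis, with filled circles for merged exons and open diamonds for the longest basic transcript. FGFR1 is at the top and FGF18, FGF7 and FGFR2 lie far below the other 6; the 2 symbols coincide for FGF2 and FGF18, whose 2 lengths are the same.

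At 24 h, 4 of the 7 tested genes were higher with thrombin (FGF1, FGF2, FGF5 and FGFR1) and 0 were lower, against 9.05% higher and 8.54% lower among all 15353 genes. At 4 h, 2 were lower (FGF1 and FGF2) and 1 was higher (FGFRL1), against 5.52% and 6.29%. At 48 h, 0 of 7 passed (0.00% of all genes in either direction). The median log2 fold change of the 7 genes was -0.28 at 4 h, 0.36 at 24 h and 0.13 at 48 h. Over all genes tested it was at most 0.0089 in size. Adjusted p-values are from edgeR's quasi-likelihood test with Benjamini-Hochberg adjustment over all genes, a call is an adjusted p under 0.05, and ± after a log2 fold change is its standard error. With library totals in place of TMM, the whole distribution at 24 h moved by -0.11 on the log2 scale and the split of calls became 845 higher and 2537 lower, against 1389 and 1311. At 4 h that split was 1208 and 649, against 965 and 848. No FGF gene changed its direction between scalings at 4 or 24 h among those called.

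FGF1, the acidic FGF, is a ligand for all FGF receptors. At 4 h its level was 15.4, 22.4 and 20.1 CPM in control (libraries 12, 13 and 14) and 8.90, 8.33 and 10.5 CPM with thrombin. The thrombin values were all below the control values. FGF1 fell by 1.07 ± 0.13 on the log2 scale (adjusted p = 8e-06). At 24 h the control libraries read 10.8, 11.5 and 13.1 CPM and the thrombin libraries 36.0, 31.9 and 33.6 CPM. The groups were far apart, and each thrombin 24 h library was above every other library of the series. The rise was 1.52 ± 0.13 in log2, a 2.87-fold change (adjusted p = 3.92e-09).

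By 48 h the FGF1 levels overlapped, at 19.9, 20.1 and 17.0 CPM in control and 19.4, 19.4 and 21.5 CPM with thrombin. The difference was 0.08 in log2, with a 95% interval from -0.18 to 0.33. The thrombin effect at 24 h exceeded that at 4 h by 2.59 ± 0.18 (adjusted p = 1.04e-10), and the effect at 48 h differed from that at 24 h by -1.44 ± 0.18 (adjusted p = 3.28e-06). These differences share the 24 h libraries. From the lowest to the highest group mean, the order was thrombin 4 h (9.23 ± 1.11, SD, n = 3), control 24 h (11.8 ± 1.20), control 48 h (19.0 ± 1.75), control 4 h (19.3 ± 3.57), thrombin 48 h (20.1 ± 1.22) and thrombin 24 h (33.9 ± 2.07). The 3 groups near 20 CPM overlapped one another.

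FGF2, the basic FGF, is a broad mitogen stored on heparan sulfate of the matrix. Its level at 4 h was 62.7, 78.4 and 78.2 CPM in control and 58.5, 54.5 and 55.6 CPM with thrombin. All thrombin values lay below the lowest control value, that of library 12. FGF2 fell by 0.38 ± 0.10 (adjusted p = 0.0178), and this call was lost when any 1 of 4 libraries was left out (13 or 14 of either group; adjusted p from 0.0663 to 0.102). At 24 h it was at 46.2, 49.0 and 58.3 CPM in control and 136.3, 140.6 and 109.2 CPM with thrombin. Again all 3 thrombin libraries were above all other libraries of the series. FGF2 rose by 1.33 ± 0.10 in log2, 2.51-fold (adjusted p = 1.78e-09).

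At 48 h FGF2 was at 87.0, 79.3 and 81.8 CPM in control and 75.4, 82.2 and 83.1 CPM with thrombin, and the groups overlapped. The log2 difference was -0.04 (95% interval -0.26 to 0.17). Its thrombin effect differed by 1.71 ± 0.15 between 24 and 4 h (adjusted p = 3.3e-09) and by -1.37 ± 0.15 between 48 and 24 h (adjusted p = 4.01e-07). The group means ran from 51.2 ± 6.32 CPM (SD, n = 3) in control 24 h and 56.2 ± 2.11 in thrombin 4 h, which overlapped, to 128.7 ± 17.0 in thrombin 24 h. Between these came control 4 h (73.1 ± 8.97), thrombin 48 h (80.2 ± 4.21) and control 48 h (82.7 ± 3.93), and each of these overlapped its neighbour in the order.

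FGF2 shares 9540 bases with NUDT6 on the opposite strand, and the sources used here do not state whether the counting used strand. NUDT6 lay between 2.56 and 4.69 CPM over the libraries. FGF2 had 12.4 to 14.6 counts per NUDT6 count in control 24 h and 33.4 to 53.3 in thrombin 24 h, while NUDT6 itself was at 3.93 ± 0.68 and 3.28 ± 0.73 CPM (SD, n = 3). SPRY4-AS1 (mean 0.709 CPM), CFAP299 (0.370 CPM) and LETM2 (8.40 CPM) overlap FGF1, FGF5 and FGFR1 and were low beside them.

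FGF5, best known as the signal that ends hair growth, showed the same direction as FGF1 and FGF2 at 24 h with a wider spread. The control 24 h libraries were at 15.5, 21.4 and 33.2 CPM and the thrombin 24 h libraries at 39.5, 43.6 and 56.5 CPM. The ranges did not overlap. FGF5 rose by 0.99 ± 0.30 in log2 (adjusted p = 0.0327), and the call was lost without control 12 or 13 or thrombin 13 or 14 of that time (adjusted p from 0.0583 to 0.123).

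At 4 h FGF5 stood at 23.3, 44.8 and 44.9 CPM in control and at 25.0, 26.1 and 28.2 CPM with thrombin, with the control library 12 below all 3 thrombin libraries. The log2 difference was -0.51 (95% interval -1.13 to 0.11, adjusted p = 0.286). At 48 h it was 41.3, 44.8 and 49.8 CPM in control and 31.1, 35.9 and 55.2 CPM with thrombin, with overlap (log2 difference -0.16, 95% interval -0.77 to 0.45). The effect at 24 h exceeded that at 4 h by 1.50 ± 0.41 (adjusted p = 0.0147). The effect at 48 h differed from that at 24 h by -1.15 ± 0.41, which did not pass (adjusted p = 0.0791). It passed with DESeq2 (adjusted p = 0.0455), without robust estimation of the spread (0.0194), without the filter on low counts (3.66e-12), without control 24 h library 14 (0.0174) and without thrombin 48 h library 14 (0.0245).

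**Figure D2:**
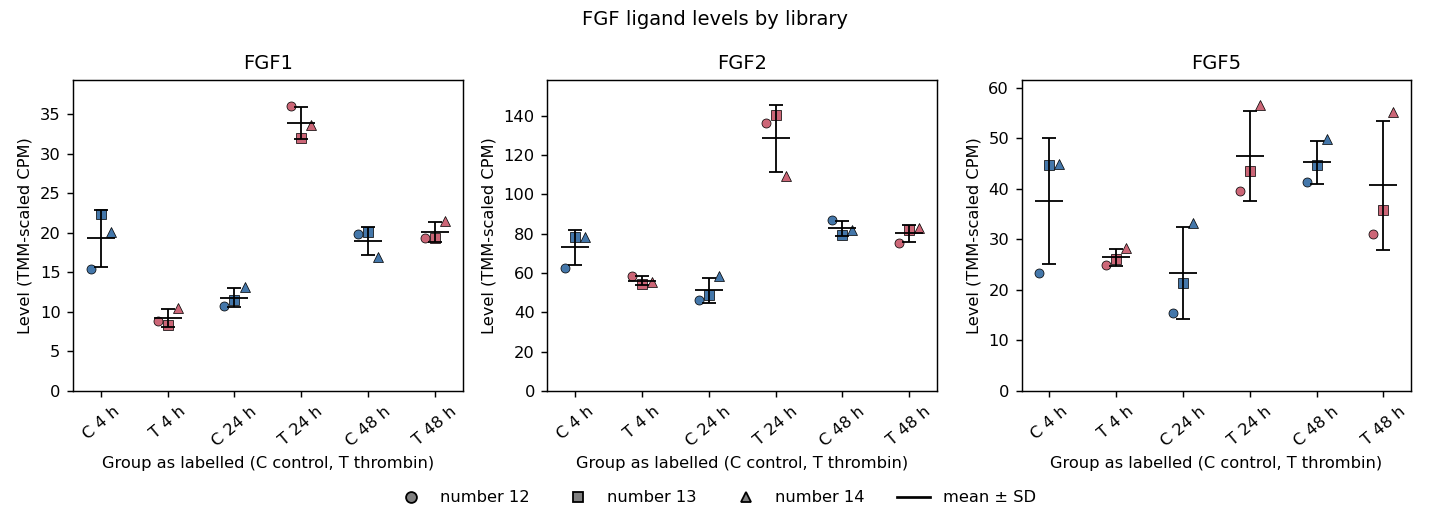
Level of FGF1, FGF2 and FGF5 in TMM-scaled CPM for each of 18 libraries, by group as labelled (C control, T thrombin), with the marker shape for the library number and bars for mean ± SD (n = 3). The thrombin 24 h libraries of FGF1 (31.9 to 36.0 CPM) and FGF2 (109.2 to 140.6 CPM) stand above all others, and FGF5 spreads more within its groups.

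The spread of FGF5 followed the library number. In 6 of 6 groups the library numbered 12 was the lowest and that numbered 14 the highest. On the log2 scale, number 12 lay on average 0.32 below (-0.32) and number 14 lay 0.32 above the group mean. Of 15353 genes, 8 had this order in all 6 groups (0.0521%), and FGF5 was the 1 FGF gene among them. This order was noticed in the data and has no test; whether the numbers mark cultures, passages or batches is not stated.

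**Figure D3:**
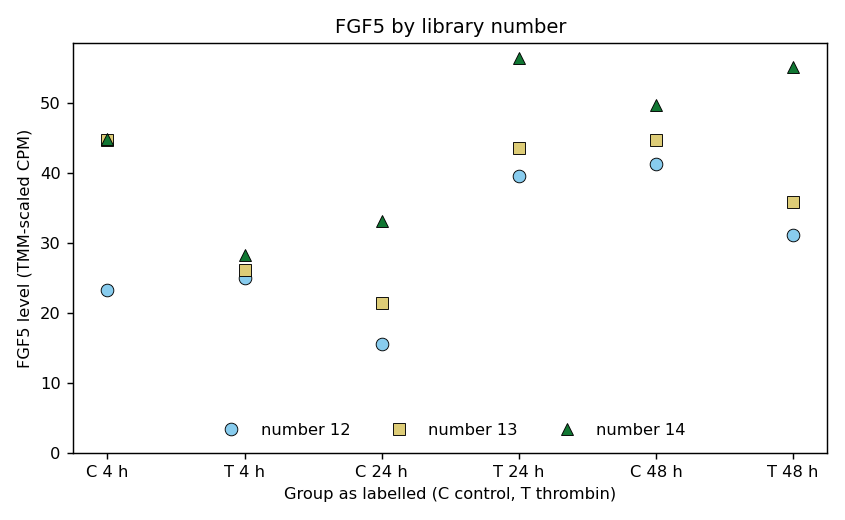
FGF5 level in TMM-scaled CPM by group as labelled, with a separate symbol for the library numbers 12, 13 and 14. In each of the 6 groups number 12 is lowest and number 14 highest, with a gap of 3.24 CPM in thrombin 4 h and 24.2 CPM in thrombin 48 h.

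FGF18 (chr5:171419656-171457623), a ligand that acts mainly through FGFR3 in cartilage, was near the detection limit. It had 17, 17 and 6 counts in control 4 h, 13, 18 and 9 in thrombin 4 h, 9, 16 and 7 in control 24 h, and 9, 9 and 13 in thrombin 24 h. At 48 h it had 3, 6 and 1 counts in control and 11, 3 and 3 with thrombin. Both 48 h groups held fewer counts than the earlier groups. Its log2 difference was -0.15 (95% interval -1.08 to 0.79) at 4 h, -0.07 (-1.08 to 0.94) at 24 h and 0.89 (-0.52 to 2.30) at 48 h, and none passed. Control 48 h against control 24 h gave -1.89 ± 0.61 (adjusted p = 0.0601).

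FGF7 (chr15:49423096-49488775), the keratinocyte growth factor made by mesenchymal cells, had 57 counts in all, 0 to 12 per library. The library with 12 counts was control 48 h number 14. A count of 0, seen in 2 libraries, allows up to 3 counts, or 0.180 CPM in control 24 h number 14 and 0.169 CPM in thrombin 24 h number 14. FGF7 has near-identical copies; FGF7P3 had 9 to 24 counts per library, and how shared reads were divided is not given, so the level is uncertain. FGF7 (mean 0.187 CPM) also overlaps FAM227B on the opposite strand, whose mean of 1.10 CPM was higher. FGF7 was not tested. Its control 48 h libraries (3, 5 and 12 counts) read above those of control 24 h (2, 2 and 0 counts), and the other groups compared overlapped. With the limit for a 0, these 2 groups are not separated either. The 0 in control 24 h number 14 allows up to 0.180 CPM, above the 0.158 CPM of control 48 h number 12.

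The receptor genes lie at chr8:38400215-38468834 (FGFR1, minus strand), chr10:121478334-121598458 (FGFR2, minus strand), chr4:1793293-1808872 (FGFR3, plus strand) and chr4:1009936-1026897 (FGFRL1, plus strand). Among them, FGFR1, the mesenchymal FGF receptor, made up 90.4% to 93.6% of the counts of FGFR1, FGFR2, FGFR3 and FGFR4 in each library. At 24 h it was at 263.9, 245.4 and 237.9 CPM in control and 311.9, 338.8 and 308.6 CPM with thrombin, without overlap. FGFR1 rose by 0.36 ± 0.08 in log2, 1.28-fold (adjusted p = 0.00282). At 4 h its values were 253.5, 286.0 and 275.0 CPM in control and 233.8, 236.3 and 236.6 CPM with thrombin. The thrombin values were all below the control values, and the log2 difference of -0.21 (95% interval -0.37 to -0.04) did not pass (adjusted p = 0.106). Without all libraries numbered 12 it was -0.25 and passed (adjusted p = 0.0302).

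The FGFR1 effect at 24 h exceeded that at 4 h by 0.57 ± 0.12 (adjusted p = 0.000667). At 48 h control read 273.0, 259.0 and 232.5 CPM and thrombin 312.1, 273.1 and 260.0 CPM. The ranges overlapped, and the log2 difference was 0.14 (95% interval -0.02 to 0.31, adjusted p = 0.724). By group mean, FGFR1 ran from 235.5 ± 1.54 CPM (SD, n = 3) in thrombin 4 h through control 24 h (249.1 ± 13.4), control 48 h (254.8 ± 20.6), control 4 h (271.5 ± 16.5) and thrombin 48 h (281.7 ± 27.1) to 319.8 ± 16.6 in thrombin 24 h. Its range was narrow beside that of the ligands.

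FGFR3, a receptor that restrains bone growth, was at 18.8, 17.3 and 16.3 CPM in control 4 h and 14.6, 14.5 and 14.0 CPM in thrombin 4 h. The thrombin libraries were all lower, and the log2 difference of -0.28 (95% interval -0.54 to -0.03) did not pass (adjusted p = 0.144). At 24 h it was at 16.0, 16.8 and 12.6 CPM in control and 15.7, 17.7 and 16.4 CPM with thrombin, with overlap (0.14, 95% interval -0.13 to 0.40, adjusted p = 0.497). At 48 h it was 11.9, 11.5 and 12.0 CPM in control and 17.9, 12.8 and 12.9 CPM with thrombin. All thrombin libraries were above all control libraries there, and the log2 difference of 0.29 (95% interval 0.03 to 0.56) did not pass (adjusted p = 0.64, unadjusted p = 0.0312).

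FGFRL1, the kinase-lacking receptor, was higher with thrombin at 4 h. It was at 40.6, 49.0 and 52.9 CPM in control and 59.4, 60.9 and 56.9 CPM with thrombin, without overlap. FGFRL1 rose by 0.31 ± 0.10 in log2 (adjusted p = 0.0357). The call was lost without any 1 of 4 libraries (control 12 or 13, thrombin 13 or 14; adjusted p from 0.0666 to 0.165), and the difference was 0.21 without control 12, the lowest library. It was also lost with only the 2 groups compared (adjusted p = 0.0946) and without the 48 h libraries (adjusted p = 0.0586). At 24 h the values were 58.8, 60.3 and 56.0 CPM in control and 51.0, 54.1 and 45.0 CPM with thrombin. The thrombin values were all lower, and the log2 difference of -0.22 (95% interval -0.43 to -0.02) did not pass (adjusted p = 0.122). With library totals in place of TMM it was -0.33 and passed (adjusted p = 0.0147).

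The FGFRL1 effect at 24 h differed from that at 4 h by -0.54 ± 0.14 (adjusted p = 0.00496). At 48 h it read 51.0, 50.2 and 56.4 CPM in control and 63.6, 56.5 and 52.2 CPM with thrombin, with overlap (0.13, 95% interval -0.07 to 0.33, adjusted p = 0.789).

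**Figure D4:**
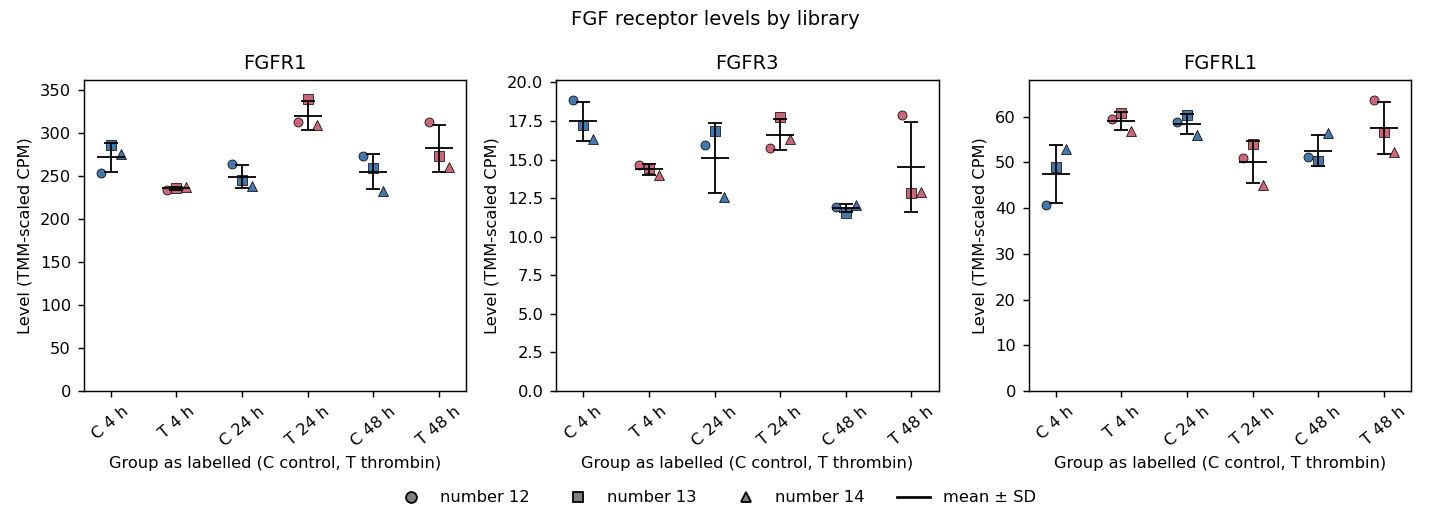
Level of FGFR1, FGFR3 and FGFRL1 in TMM-scaled CPM for each of 18 libraries, by group as labelled (C control, T thrombin), with the marker shape for the library number and bars for mean ± SD (n = 3). FGFR1 is highest in thrombin 24 h (308.6 to 338.8 CPM, overlapped by 1 thrombin 48 h library at 312.1 CPM), and FGFRL1 at 4 h is higher with thrombin (56.9 to 60.9 CPM against 40.6 to 52.9 CPM).

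FGFR2, whose epithelial form binds FGF7, had 23 counts in all, 0 to 8 per library, and 0 in 6 libraries. A 0 there allows between 0.140 and 0.209 CPM at 3 counts. The 8 counts came from thrombin 4 h number 14. No comparison was made.

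Between times, 5 of the 7 tested genes had a thrombin effect at 24 h that differed from that at 4 h (FGF1, FGF2, FGF5 and FGFR1 upward, FGFRL1 downward), against 28.0% of all genes. Between 48 and 24 h the count was 2 (FGF1 and FGF2), against 13.8%. Between 48 and 4 h it was 1 (FGF1, 1.15 ± 0.18, adjusted p = 0.00138), against 0.632%. These contrasts share libraries with the comparisons at each time. At 48 h, edgeR called 0 of 15353 genes, 1110 genes had an unadjusted p under 0.05, and DESeq2 called 9 genes higher and 5 lower, none of them an FGF gene listed here. Among the 7, FGFR3 alone had an unadjusted p under 0.05 at 48 h.

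**Figure D5:**
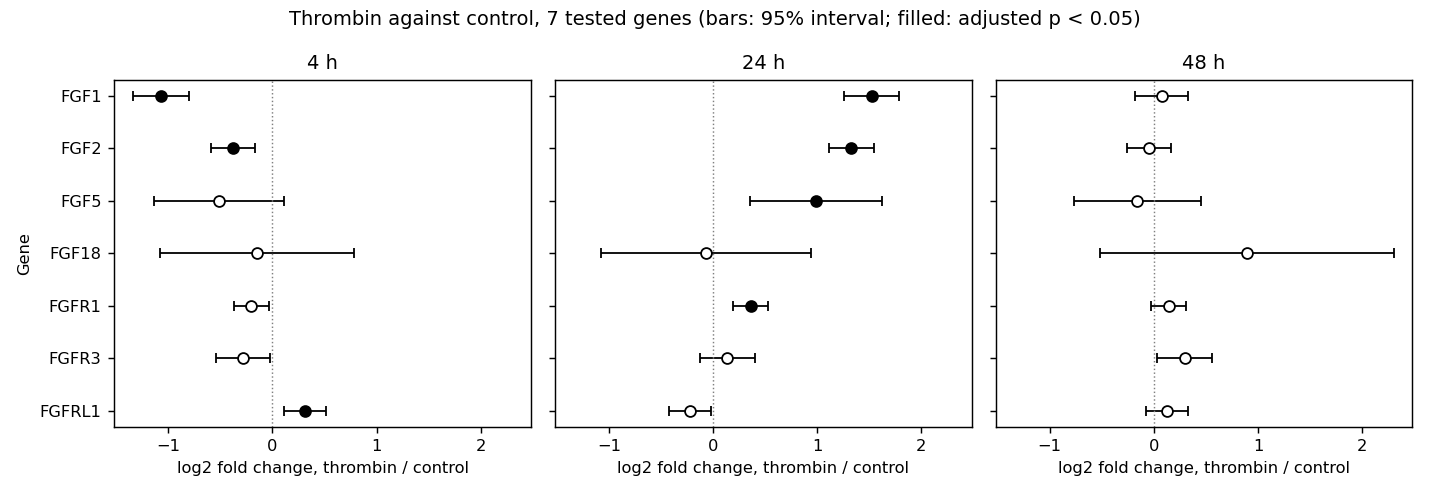
Log2 fold change of thrombin against control for the 7 tested genes at 4, 24 and 48 h, with bars for the 95% interval and filled points for an adjusted p under 0.05. FGF1 moves from -1.07 through 1.52 to 0.08, and the intervals of FGF18 are the widest.

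The control groups moved as well. From control 4 h to control 24 h, FGF1 (-0.71 ± 0.13, adjusted p = 0.00048) and FGF2 (-0.51 ± 0.10, adjusted p = 0.0014) were lower and FGFRL1 was higher (0.30 ± 0.10, adjusted p = 0.0407), against 7.15% lower and 8.10% higher among all genes. The FGFRL1 call was lost without control 4 h library 12 (0.20, adjusted p = 0.196) and in 8 other settings. From control 24 h to control 48 h, FGF1 (0.69 ± 0.13, adjusted p = 0.00259) and FGF2 (0.69 ± 0.10, adjusted p = 0.000362) were higher and 0 were lower, against 2.69% and 3.43%. FGF5 was 0.95 ± 0.29 higher there without passing (adjusted p = 0.0717), and passed with DESeq2 (adjusted p = 0.0261), without robust estimation (0.0189), without the filter on low counts (2.89e-15) and without control 24 h library 14 (1.30, adjusted p = 0.0191).

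The control 24 h libraries, which set the base of the 24 h comparison, were therefore the lowest controls for FGF1 and FGF2. Against control 4 h, the thrombin 24 h libraries were still higher for FGF1 (0.81 ± 0.12, adjusted p = 0.000126) and FGF2 (0.81 ± 0.10, adjusted p = 1.26e-05), the 2 genes called of 7, against 2.37% higher and 0.970% lower among all genes. From thrombin 24 h to thrombin 48 h, FGF1 (-0.76 ± 0.12, adjusted p = 0.000122) and FGF2 (-0.68 ± 0.10, adjusted p = 5.23e-05) were lower and 0 were higher, against 5.41% and 4.31%. These comparisons reuse the same libraries. With all libraries labelled 4 h left out, the 24 h effects were 1.52 for FGF1, 1.33 for FGF2, 0.99 for FGF5 and 0.36 for FGFR1. Each group has its own mean, so this setting could move these sizes only slightly, through the filter, the scaling and the shared spread. It is therefore no check of them.

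Summed over the 5 ligands, the level was 87.1 ± 16.3 CPM (SD, n = 3) in control 24 h and 209.9 ± 8.82 CPM in thrombin 24 h, with no overlap. At 4 h the sums were 130.9 ± 24.6 and 92.6 ± 2.52 CPM, and at 48 h 147.5 ± 2.40 and 141.7 ± 17.1 CPM. The sum is mostly FGF2. FGF1 stood at 16.4 ± 2.07 counts per 100 FGF2 counts in thrombin 4 h, below each of the other groups. It was at 26.3 ± 2.09 in control 4 h, 26.7 ± 4.05 in thrombin 24 h and 25.1 ± 1.26 in thrombin 48 h, which overlapped. Across 18 libraries the log2 levels of FGF1 and FGF2 had a Pearson r of 0.93, and FGF1 and FGFR1 0.83. FGF18, which had few counts, and FGFR3 had 0.80, FGF2 and FGFR1 0.77, and FGF2 and FGF5 0.76. The lowest were FGF1 and FGFRL1 at -0.52 and FGF5 and FGF18 at -0.50. These are descriptions over libraries that share groups and depth.

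By the same measure the genes most like FGF1 were CALD1 (r = 0.97), GLIPR1 (0.97) and MICAL2 (0.96), and those most like FGF2 were VGLL3 (0.97), OXTR (0.97) and GLIPR1 (0.96). For FGF5 they were KCNQ5 (0.93), SMURF2 (0.93) and SPRED1 (0.92), and for FGFR1 they were TBC1D2 (0.93), TNC (0.93) and AJAP1 (0.92). FGFRL1 was closest to DENND1A (0.89), C2CD4C (0.86) and FBXL17 (0.85), FGFR3 to SNRNP35 (0.88), LENG8 (0.85) and CD14 (0.84), and FGF18 to MBLAC1 (0.87), NACAD (0.86) and LAMA5 (0.85).

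The wider pathway was read from 6 lists at 24 h, with genes named by the smallest adjusted p. Among all genes at that time, 9.05% were higher and 8.54% lower, with a median log2 fold change of 0.0017, and each list's counts stand beside these shares. Of 17 other FGF family genes, 5 were tested and 1 was lower. Of the 5, FGF11, FGF12 and FGF14 are intracellular FGF homologous factors and not secreted ligands. The lower gene was FGF17, at 0.965 ± 0.091 CPM in control and 0.410 ± 0.131 CPM with thrombin, or 14 to 16 counts against 5 to 8. DESeq2 did not call it. The edgeR call was lost without control 12, 13 or 14 or thrombin 12 or 14 of that time (adjusted p 0.0650 to 0.171). It was also lost without the filter on low counts (0.0733) and without all libraries numbered 12 (0.142). Of 13 co-receptors and binding proteins, including FGFR4, 10 were tested, 3 were higher and 2 lower (9.05% and 8.54% of all genes). CDH2, the N-cadherin that stabilises FGFR1, rose from 144.4 ± 1.89 to 301.0 ± 36.0 CPM (log2 1.06, adjusted p = 3.92e-09), and NCAM1, an adhesion molecule that binds FGFR1, fell from 29.3 ± 2.26 to 15.7 ± 1.27 CPM (-0.90, adjusted p = 4.68e-06). ANOS1 rose (0.41) and FLRT2 fell (-0.55). The ANOS1 call was lost without control 12 or 13 or thrombin 12 or 14 of that time (adjusted p 0.0527 to 0.0872). It was also lost with library totals (0.0917), without the filter on low counts (0.0520) and without all libraries numbered 12 (0.0865). The FLRT2 call was lost without control 12 or 13 or thrombin 13 or 14 (0.0904 to 0.136) and without the 48 h libraries (0.0503). The list's median was -0.16. At 4 h NCAM1 rose (0.81, adjusted p = 6.63e-05) and CDH2 fell (-0.35, adjusted p = 0.0107). The CDH2 call at 4 h was lost without control 13 or thrombin 13. In that list 1 was higher and 1 lower at 4 h, against 6.29% and 5.52% of all genes.

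Heparan sulfate proteoglycans and their enzymes had 22 tested of 26, with 4 higher and 1 lower and a median of 0.17, against 9.05% higher and 8.54% lower among all genes. SDC4, the syndecan of focal adhesions, rose from 154.2 ± 1.75 to 313.4 ± 19.2 CPM (1.02, adjusted p = 1.9e-09), and EXT1, a heparan sulfate polymerase, rose from 112.3 ± 9.09 to 197.3 ± 10.7 CPM (0.81, adjusted p = 1.38e-06). GPC1 (0.37) and the sulfotransferase HS3ST3A1 (0.69; without thrombin 14, 0.56 and adjusted p = 0.0657) rose too. At 4 h SDC4 (-0.64, adjusted p = 1.56e-05) and EXT1 (-0.30, adjusted p = 0.0463) fell, the second call being lost in 7 of the alternatives tried. In that list 1 was higher and 3 lower at 4 h, against 6.29% and 5.52% of all genes.

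Adaptors and transducers, all 20 tested, had 3 higher and 2 lower at 24 h and a median of 0.06, against the same 9.05% and 8.54%. NRAS rose by 0.40 (adjusted p = 0.00745) and MAPK3, the kinase ERK1, fell by 0.36 (-0.36, adjusted p = 0.012). The MAPK3 call was lost without control 12 or thrombin 12 or 14 (adjusted p 0.0623 to 0.0676). PTPN11 (0.29) and MAP2K1 (0.28) were called, and both calls were lost with library totals (adjusted p = 0.11 and 0.2) and without thrombin 14 (0.0982 and 0.312), among other settings. Among 18 feedback inhibitors and target genes, 4 were higher and 5 lower, with a median of -0.11, against 9.05% and 8.54% of all genes. MYC rose from 103.3 ± 3.11 to 177.1 ± 15.8 CPM (0.78, adjusted p = 1.43e-07), FOSL1, an AP-1 subunit, from 227.6 ± 25.6 to 425.0 ± 80.1 CPM (0.90, adjusted p = 0.000564) and SPSB1 by 0.51 (adjusted p = 0.000462). SPRY1, a Sprouty inhibitor, fell from 22 to 42 counts per library to 2 to 11 (-2.35, adjusted p = 0.00331). At 4 h FOSL1 (-0.86) and MYC (-0.36) fell, MYC not without control 13 (-0.27, adjusted p = 0.0558). In that list 2 were higher and 3 lower at 4 h, against 6.29% and 5.52% of all genes. Among the adaptors and transducers 2 were higher and 0 lower at 4 h, against 6.29% and 5.52% of all genes. MAPK3 rose there from 120.5 ± 5.49 to 149.0 ± 20.4 CPM. Its call was lost without control 13 or 14 or thrombin 13 or 14 (adjusted p 0.104 to 0.216), among other settings.

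Of 8 genes tied to the release of FGF1 and FGF2 without a signal peptide, 2 were higher and 2 lower at 24 h (9.05% and 8.54% of all genes). ANXA2 rose by 0.58 (adjusted p = 0.000187) and ATP1B1, a subunit of the sodium pump, by 0.43 (adjusted p = 0.00312). S100A13, which travels with FGF1, fell by 0.49 (-0.49, adjusted p = 0.00199) and SYT1 by 0.41 (-0.41, adjusted p = 0.0173; lost without control 14 or thrombin 13 or 14, adjusted p 0.0505 to 0.102). ANXA2 has near-identical copies, so its level is uncertain. At 4 h ANXA2 fell (-0.51, adjusted p = 0.0016). In that list 0 were higher and 2 lower at 4 h, against 6.29% and 5.52% of all genes. None of the 6 lists had a call at 48 h, by edgeR.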

How the data were processed

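The authors deposited raw counts per gene symbol for 18 libraries, whole numbers with no normalization visible in the values. GRCh38 is the build, and DESeq2, SAMtools 1.21, Bowtie2 2.5.4 and cutadapt 4.9 are the tools, named in the submitters' processing notes; the sources used here do not give the counter, annotation or strand setting. Counts were analysed in R 4.3.3 with edgeR 4.0.16 (filterByExpr, minimum count 10 and minimum total 15, TMM factors 0.945 to 1.031, robust quasi-likelihood, 1 mean per group, 12 residual degrees of freedom). Tests were two-sided, with Benjamini-Hochberg adjustment over 15353 genes and a threshold of 0.05. The script was tested on simulated data. Alternatives were DESeq2 1.42.0, other filters and scalings, a replicate block, left-out libraries, the 2 groups compared alone, and all 4 h or all 48 h libraries left out. The list of named genes was all 9 FGF genes, at most 4 genes of each pathway list by adjusted p at 24 h, the 3 genes most like each tested gene over the libraries (Pearson r of log2 CPM, prior count 2) and genes overlapping a member. The genes and lists were chosen with earlier results of these data known. None of the 153 pairs of libraries held identical values. Over all genes, the deviations of same-numbered control and thrombin libraries of a time correlated between -0.093 and 0.057, so the numbers were not used as pairs. A 0 was read as at most 3 counts, and that limit covers counting error only. Of 28278 symbols, 95.5% were in the RefSeq gene table, and all 9 FGF genes were in RefSeq and GENCODE 29.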

Additional observations from a re-analysis of the deposited data

Results flagged for a closer look

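The thrombin effect differed between times, by the test of the difference itself (edgeR, adjusted over all genes), for 5 of the FGF genes. From 4 h to 24 h the difference in log2 fold change was 2.59 ± 0.18 for FGF1 (adjusted p = 1.04e-10), 1.71 ± 0.15 for FGF2 (3.3e-09), 1.50 ± 0.41 for FGF5 (0.0147), 0.57 ± 0.12 for FGFR1 (0.000667) and -0.54 ± 0.14 for FGFRL1 (0.00496). From 24 h to 48 h it was -1.44 ± 0.18 for FGF1 (3.28e-06) and -1.37 ± 0.15 for FGF2 (4.01e-07). From 4 h to 48 h it was 1.15 ± 0.18 for FGF1 (0.00138). The 4 h values rest on the labels, and 11 genes separated the thrombin 4 h libraries from the control 24 h libraries.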

How the results depend on the processing

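No called FGF result changed sign. Uncalled ones did: FGF2 at 48 h reached 0.04, FGF18 at 4 h 0.19 and at 48 h -0.11, and so did other FGF18 differences, FGF5 at 48 h, FGFR1 in control 48 h against 24 h and FGFR3 for 48 h minus 24 h. Leaving out 1 library at a time gave 1 to 3 calls at 4 h (3 with all), 3 to 4 at 24 h (4), 0 at 48 h (0), 5 for 24 h minus 4 h (5), 2 to 3 for 48 h minus 24 h (2), 1 for 48 h minus 4 h (1), 2 to 3 for control 24 h against 4 h (3) and 2 to 5 for control 48 h against 24 h (2). The 4 h count was 1 without control 13, thrombin 13 or thrombin 14. Over all genes, those settings called 560, 525 and 425 higher and 459, 463 and 415 lower, against 965 and 848 with all libraries. Without all libraries numbered 12, 48 h minus 4 h gave 2 calls. All-gene calls were then 596 higher and 537 lower of 15520, against 97 of 15353 with all libraries. Without the filter on low counts, control 48 h against 24 h gave 4. All-gene calls were then 844 higher and 680 lower of 23839, against 413 and 527 of 15353. The cause was not tested. The FGF1, FGF2 and FGFR1 calls at 24 h held in 17 of 17 alternatives and FGF1 at 4 h in 16 of 16. These counts include settings that only leave out groups not compared. Such settings could move the sizes only slightly and are no check of them. The time points left out whole were chosen after seeing the data.

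The replicate block, with the library number as a term, gave 4 calls at 4 h, 4 at 24 h and 0 at 48 h. Over all 15353 genes the block called 951 higher and 878 lower at 4 h, 1370 and 1308 at 24 h, and 0 and 1 at 48 h. It added FGF5 at 4 h (-0.47, adjusted p = 0.0394) and, for FGF5, 48 h minus 24 h (-1.21), control 24 h against 4 h (-0.70) and control 48 h against 24 h (1.00). The FGFRL1 call of control 24 h against 4 h was lost (adjusted p = 0.0504), and no other call of an FGF gene changed. Correlations of same-numbered deviations within a time ran from -0.093 to 0.057. Of 18 libraries, 9 were on average closest to those of their own number in other groups, a count that was not tested. Counts per library limit FGF18, FGF7 and FGFR2.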
